A study of Rattus norvegicus with 32 samples.

Results

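Leukocyte recruitment and activation were followed through 7 rat genes in renal cortical RNA sequencing, out of 26404 genes counted. The genes were the chemokine Ccl2, the endothelial adhesion molecules Icam1 and Vcam1, the macrophage protein Cd68, the pan-leukocyte phosphatase Ptprc (CD45), the class II invariant chain Cd74 and complement component C3. They were chosen by Ensembl identifier and chromosome. All 7 identifiers lay on the intended chromosome and were kept, and all 7 were among the 14776 genes that passed the filter on low counts.

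Renal cortex came from 2 strains. Sprague Dawley (SD) rats were the healthy controls and had no surgery, and the diabetic rats were of the Zucker Diabetic Sprague Dawley (ZDSD) strain, which becomes obese and diabetic. The ZDSD rats had a laparotomy alone (SHAM), Roux-en-Y gastric bypass (RYGB), or RYGB plus ramipril, metformin, rosuvastatin and fenofibrate mixed into chow (RYGB-FMRR). The sample labels give 37 weeks of age for every rat, whereas the study's methods describe sham surgery at a younger age than RYGB with 1 length of follow-up, so SHAM rats may have been younger. The SHAM, RYGB and RYGB-FMRR groups shared the ZDSD strain, male sex and insulin degludec in the week before surgery, and the RYGB groups hold the rats that survived the operation. Strain, diabetes, the operation and insulin cannot be told apart where SD is compared with any ZDSD group. Neither can the 4 drugs in RYGB-FMRR, which were given together. The RYGB operations were staggered, and RYGB-FMRR rats were operated on at a slightly younger age than RYGB rats.

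The values are from 6 SD, 7 SHAM, 9 RYGB and 7 RYGB-FMRR rats, with total counts of 14502127 to 27597901 per library. SHAM rats 343 and 348 had totals of 121511 and 101534, under the minimum of 1000000, and were left out. The labels name 1 further RYGB-FMRR rat, not analysed here. Within each group no 2 libraries were identical, and the counts of every pair differed by more than sampling noise. Levels are CPM, counts scaled to library size by TMM, given as mean ± standard deviation over rats, and comparisons between genes use RPKM, the same CPM per kilobase of exon. The whole cortex was sequenced, so fewer cells of a type and less RNA per cell cannot be told apart. The kidney and leukocyte marker lists were not analysed here, since the count tables name genes by identifier only.

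In kidney tissue under metabolic stress, tubular, glomerular and endothelial cells secrete the chemokine CCL2, which draws monocytes through the receptor CCR2. Circulating cells then stop on the endothelium through the integrin ligands ICAM1 and VCAM1 and enter the interstitium, where CD68 marks macrophages and CD45 marks leukocytes of all lineages. CD74 escorts class II molecules to the compartment where antigen peptide is loaded, and C3 is the protein on which the complement pathways converge. Tubular epithelium can also make C3 and, on activation, ICAM1, VCAM1 and CD74, so that in bulk tissue these transcripts are not particular to leukocytes.

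On the rn5 build, Ccl2 (ENSRNOG00000007159) lies at chr10:69047091-69048889 on the plus strand in 3 exon blocks. Cd68 (ENSRNOG00000037563) is on the same chromosome, at chr10:56014365-56016243 on the minus strand in 6 blocks. Icam1 (ENSRNOG00000020679) occupies chr8:22092135-22103927 on the plus strand, with 7 blocks, and Vcam1 (ENSRNOG00000014333) chr2:237158195-237177632 on the minus strand, with 9. Ptprc (ENSRNOG00000000655) is the longest, at chr13:60094039-60205338 on the minus strand with 33 blocks. Cd74 (ENSRNOG00000018735) is at chr18:55305848-55315242 and C3 (ENSRNOG00000046834) at chr9:8728465-8754412, both on the plus strand, with 9 and 41 blocks. No other listed gene shares exon bases with any of the 7 genes on either strand, and each gene span was 96.4% to 100.6% of the span of the same symbol in RefSeq's GRCr8 assembly.

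RefSeq's GRCr8 promoter table holds 6 of the 7 genes, all but Ccl2. Bases upstream of the annotated start are shown for the adhesion genes Icam1 and Vcam1 and for C3, textbook targets of inflammatory signalling, 5′ to 3′ on the gene's strand. Capitals mark the letters GGNNNTTCC on either strand, a short pattern akin to the NF-kappaB site but not its full definition.
Vcam1, chr2:206742784-206743033, minus strand: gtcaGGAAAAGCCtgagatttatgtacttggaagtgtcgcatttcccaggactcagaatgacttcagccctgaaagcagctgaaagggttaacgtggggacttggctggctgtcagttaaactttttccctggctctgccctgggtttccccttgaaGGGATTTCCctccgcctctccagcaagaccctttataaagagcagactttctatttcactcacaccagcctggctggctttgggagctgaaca
Icam1, chr8:27829595-27829687, plus strand: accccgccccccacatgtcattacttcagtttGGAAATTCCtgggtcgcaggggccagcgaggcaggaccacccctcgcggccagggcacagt
C3, chr9:2201340-2201589, minus strand: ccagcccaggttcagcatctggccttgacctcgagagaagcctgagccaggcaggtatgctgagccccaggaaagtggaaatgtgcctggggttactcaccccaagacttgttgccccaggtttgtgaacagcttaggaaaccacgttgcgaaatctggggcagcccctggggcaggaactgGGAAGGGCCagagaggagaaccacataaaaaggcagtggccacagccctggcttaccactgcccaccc
In the 250 bases before the start, GGNNNTTCC occurred 2 times in Vcam1, 246 and 93 bases before the start, 2 times in Icam1, at 218 and 149 bases, and 1 time in C3, at 68 bases. The Icam1 run stops where an earlier annotated start begins and so shows 1 of its 2 matches. C3 is on the minus strand in GRCr8 but on the plus strand in rn5, and the difference was not examined. Cd74 held 2 matches. Among all 33469 promoters of that length in the table, 15.4% held GGNNNTTCC on either strand.

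Cd68 and Ptprc had no match to GGNNNTTCC in the 250 bases. They are shown because their levels were correlated among rats, with capitals at GAGGAA, a core read by the myeloid and lymphoid factor PU.1, on either strand.
Cd68, chr10:54882442-54882691, minus strand: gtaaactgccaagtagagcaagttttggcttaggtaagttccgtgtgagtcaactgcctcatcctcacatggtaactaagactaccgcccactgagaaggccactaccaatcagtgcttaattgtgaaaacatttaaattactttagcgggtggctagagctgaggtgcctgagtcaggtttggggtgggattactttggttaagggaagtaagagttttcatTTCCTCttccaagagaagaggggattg
Ptprc, chr13:52259811-52259996, minus strand: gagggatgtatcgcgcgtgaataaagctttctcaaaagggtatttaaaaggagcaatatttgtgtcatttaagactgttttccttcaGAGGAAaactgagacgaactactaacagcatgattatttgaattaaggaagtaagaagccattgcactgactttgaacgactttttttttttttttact
GAGGAA occurred 1 time in each of the 2 windows, 27 bases before the start in Cd68 and 163 bases before it in Ptprc. It occurred in 23.3% of all 33469 promoters. The Ptprc run stops where an earlier annotated start begins, and its distance is counted to the end of the full 250 bases. The Icam1, Vcam1 and C3 windows did not contain it and Cd74 held 1 match. These matches describe letters in the reference and were not tests of binding.

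By level, the 7 genes spanned a wide range. Cd74 had a mean of 226 RPKM over the 29 rats, above 97.5% of the genes tested. Icam1 (12.2 RPKM) and C3 (11.8 RPKM) lay near the middle of all tested genes, followed by Vcam1 at 6.33, Ptprc at 4.29, Cd68 at 3.21 and Ccl2 at 2.87 RPKM. Ccl2 therefore rested on few reads, 18 to 172 counts per rat, and Cd68 on 40 to 280, whereas Cd74 had 3674 to 14157.

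Each comparison was tested with edgeR's quasi-likelihood test over all 14776 genes, and a gene was called at a Benjamini-Hochberg adjusted p under 0.05 with a fold change of at least 1.3 in either direction. SHAM compared with SD contrasts diabetic cortex after laparotomy and insulin with healthy cortex of another strain. Cd74 was the 1 gene of 7 that was called, and it was lower. Over all genes 18.6% were called and 8% were called lower. For RYGB compared with SHAM, Ccl2 was called and lower, against 5.35% of all genes in either direction and 3.86% lower. RYGB-FMRR compared with SHAM also gave Ccl2 alone, again lower, against 12.1% of all genes and 7.7% lower. These comparisons share the SHAM rats.

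RYGB-FMRR compared with RYGB contrasts bypass with and without the drugs, in groups whose age at surgery differed slightly. By edgeR's quasi-likelihood test 0 of the 7 genes were called, where 4.56% of all genes were. At an unadjusted p under 0.05 there was 1 gene, Vcam1, and DESeq2's Wald test also called 0. Compared with SD, the RYGB rats differed in 2 genes, with C3 higher and Cd74 lower, against 19.5% of all genes called, 10.1% higher and 9.43% lower. The RYGB-FMRR rats differed from SD in Ptprc, which was lower, against 16.7% of all genes and 8.94% lower. The levels of no gene of the 7 separated 2 groups completely in any of the 6 comparisons. Complete separation held for 8.63% of all tested genes in SHAM against SD, 1.27% in RYGB against SHAM, 5.79% in RYGB-FMRR against SHAM, 2.42% in RYGB-FMRR against RYGB, 10.1% in RYGB against SD and 11.6% in RYGB-FMRR against SD. With 7 genes, these counts are too few to be set above or below the shares of all genes. The genes' median log2 fold change was 0.10 for SHAM against SD, -0.28 for RYGB and -0.27 for RYGB-FMRR against SHAM. It was 0.16 for RYGB-FMRR against RYGB, and -0.37 for RYGB and -0.04 for RYGB-FMRR against SD. The median over all genes lay between -0.017 and 0.015 in each of the 6 comparisons. The medians against SHAM depended on 1 rat, more so for RYGB-FMRR. They moved to -0.15 for RYGB and -0.05 for RYGB-FMRR when SHAM rat 311 was left out. Without SHAM rat 311, RYGB gave -0.72 (Ccl2), -0.29 (Vcam1), -0.21 (Cd68), -0.15 (Icam1), -0.10 (Ptprc), 0.12 (Cd74) and 0.65 (C3). RYGB-FMRR gave -0.78 (Ccl2), -0.28 (Ptprc), -0.18 (C3), -0.05 (Cd68), 0.04 (Vcam1), 0.09 (Icam1) and 0.37 (Cd74).

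**Figure D1:**
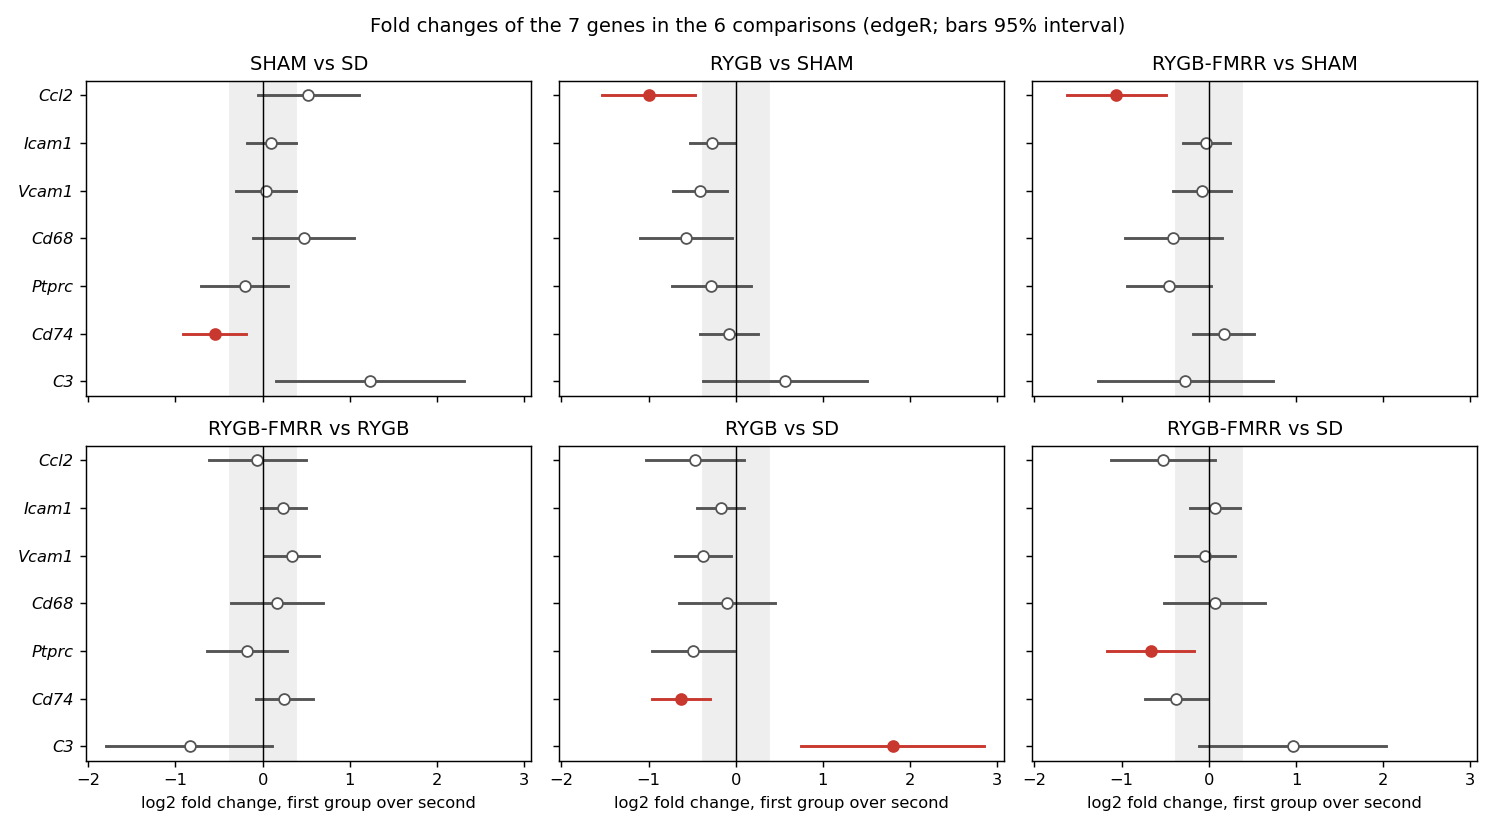
Log2 fold change (x axis, first group over second) of each of the 7 genes (y axis) in the 6 comparisons, with 95% intervals from the edgeR fit. Filled red points were called, the grey band marks fold changes under 1.3, and Ccl2 stands at -1.0 and -1.06 in the comparisons of the RYGB groups with SHAM.

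Ccl2 encodes the monocyte chemoattractant. It was low in all groups, and its mean was highest in SHAM. In SD rats it ranged from 2.03 to 3.08 CPM with a median of 2.27 (mean 2.37 ± 0.415, n = 6). The SHAM rats ran from 1.66 through a median of 2.89 to 6.8 CPM (3.41 ± 1.78, n = 7). SHAM rats 311 (6.8 CPM) and 333 (4.79 CPM) were above every SD rat, while SHAM rat 340 was below them all. RYGB rats lay between 0.948 and 2.26 CPM around a median of 1.96 (1.71 ± 0.507, n = 9), and RYGB-FMRR rats between 0.867 and 3.15 CPM around 1.28 (1.65 ± 0.783, n = 7). No RYGB rat reached the SHAM median and 3 of 9 were under the lowest SHAM rat. Of the RYGB-FMRR rats 4 of 7 were under the lowest SHAM rat, and 1, rat 336, was above the SHAM median.

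Against SHAM, Ccl2 fell by 1.0 on the log2 scale in RYGB (SE 0.26, edgeR adjusted p = 0.0114) and fell by 1.06 in RYGB-FMRR (SE 0.28, adjusted p = 0.00697). The 95% intervals of the fold were 0.346 to 0.724 and 0.323 to 0.714. The difference between RYGB-FMRR and RYGB was -0.06, with an interval of 0.653 to 1.41 for the fold. Fold changes within that interval were not excluded. In SHAM compared with SD the log2 fold change was 0.53 (SE 0.28, adjusted p = 0.146), which was 0.26 without SHAM rat 311 and 0.23 with 2 surrogate variables as covariates. Neither RYGB nor RYGB-FMRR passed the test against SD (-0.47 and -0.53, adjusted p = 0.175 in both). The order of the means was SHAM, SD, RYGB, RYGB-FMRR, and no neighbours in it passed the test. The fall in RYGB rested partly on 1 rat. Without SHAM rat 311 it was -0.72 with an adjusted p of 0.0584, and the call was lost. The fall in RYGB-FMRR was called in all 29 fits that left out 1 rat, at -1.29 to -0.78 (adjusted p 0.00134 to 0.0346). Without RYGB-FMRR rat 336, Ccl2 was also called lower in RYGB-FMRR than in SD (-0.75, adjusted p = 0.047).

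**Figure D2:**
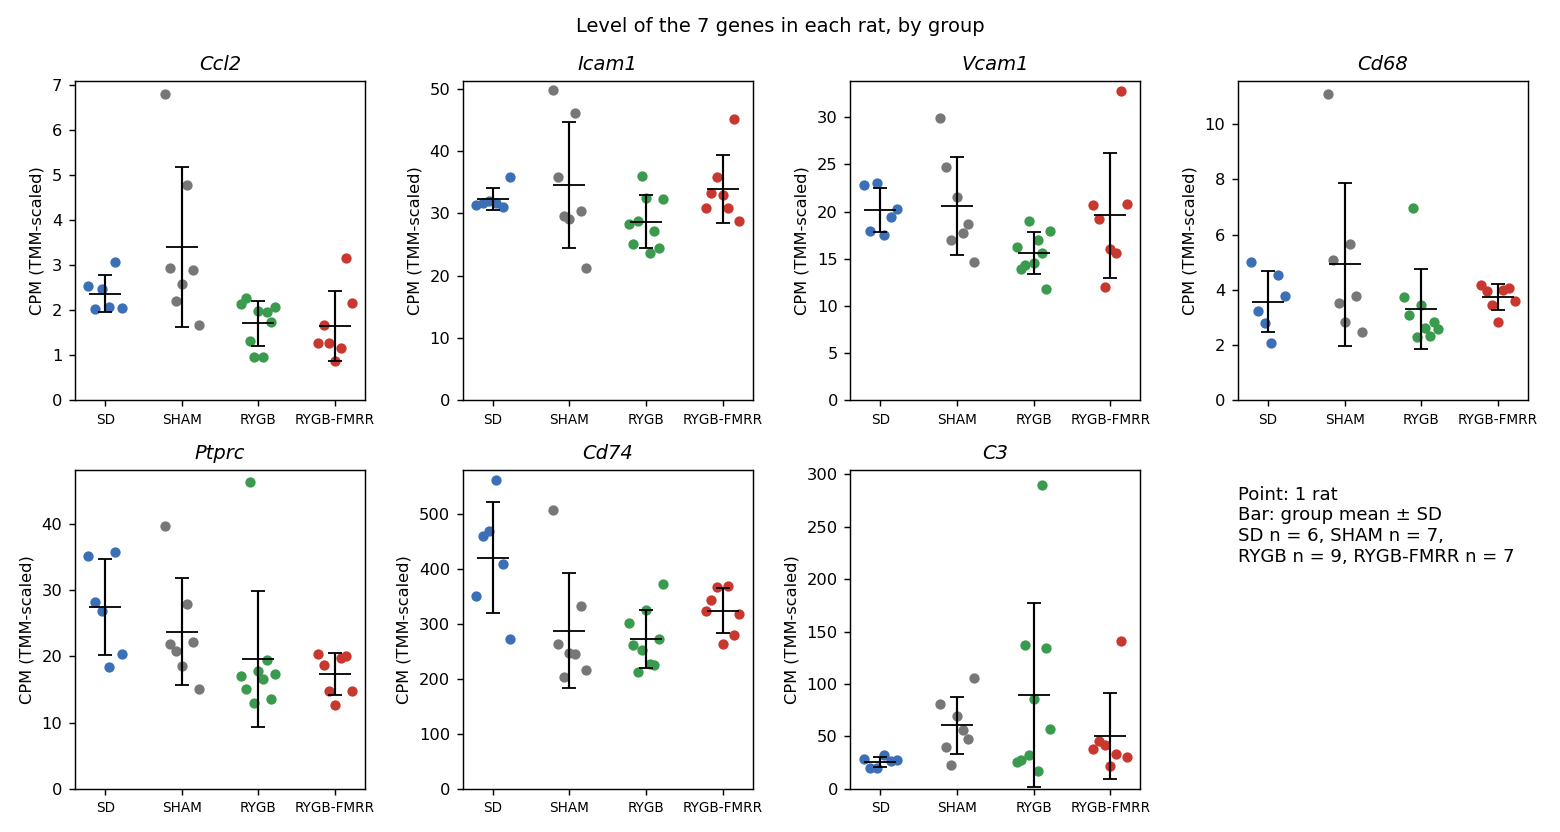
TMM-scaled CPM (y axis, linear and starting at 0, scaled per gene) of each of the 7 genes in each rat (points) by group (x axis), with bars for the group mean and standard deviation. SHAM rat 311 is the highest SHAM point in 6 panels, C3 excepted, and the C3 panel shows RYGB rats from 17.1 to 290 CPM.

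Icam1 and Vcam1, the endothelial ligands that hold leukocytes at the vessel wall, were not called in any comparison. Icam1 had the tightest group of all, the SD rats, at 31 to 35.9 CPM with a median of 31.7 (32.3 ± 1.8, n = 6). SHAM rats ran from 21.2 to 49.8 CPM with a median of 30.4 (34.6 ± 10.1, n = 7). The mean was close to SD, but SHAM rats 311 and 333 lay above all SD rats and 4 of 7 SHAM rats below them all. RYGB rats ranged from 23.6 to 36 CPM around 28.3 (28.7 ± 4.19, n = 9) and RYGB-FMRR rats from 28.7 to 45.1 CPM around 33 (33.9 ± 5.44, n = 7). RYGB compared with SHAM gave an Icam1 value of -0.27 (SE 0.13, adjusted p = 0.156), and -0.15 without SHAM rat 311. All 7 RYGB-FMRR rats were above the RYGB median, with a log2 fold change of 0.24 that did not pass the test (adjusted p = 0.22), and 0.16 without RYGB-FMRR rat 336.

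Vcam1 ranged from 17.5 to 23 CPM in SD (median 19.8, mean 20.1 ± 2.36, n = 6) and from 14.7 to 29.9 CPM in SHAM (18.7, 20.6 ± 5.22, n = 7). RYGB rats were at 11.8 to 19 CPM (15.6, 15.6 ± 2.21, n = 9), with no RYGB rat above the SD median and 1 above the SHAM median. The RYGB-FMRR rats spanned 12 to 32.8 CPM (19.2, 19.6 ± 6.65, n = 7), and 4 of 7 exceeded every RYGB rat. RYGB compared with SHAM gave -0.41 (SE 0.15, adjusted p = 0.0731) and compared with SD -0.37 (adjusted p = 0.06). RYGB-FMRR compared with RYGB gave 0.33 (adjusted p = 0.165), and 0.16 (adjusted p = 0.487) without RYGB-FMRR rat 336. Vcam1 was called lower in RYGB than in SHAM when SHAM rat 340 (-0.47, adjusted p = 0.0324) or RYGB-FMRR rat 336 (-0.41, adjusted p = 0.0333) was left out, and lower in RYGB than in SD without RYGB rat 330 (-0.41, adjusted p = 0.0433). Without SHAM rat 311 the value against SHAM was -0.29 (adjusted p = 0.229). RYGB-FMRR rat 336, at 32.8 CPM, was the highest of all 29 rats for Vcam1.

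Cd68 encodes the lysosomal glycoprotein by which tissue macrophages are commonly stained. SD rats were at 2.06 to 5.02 CPM (median 3.5, mean 3.57 ± 1.1, n = 6), and SHAM rats at 2.48 to 11.1 CPM (3.76, 4.91 ± 2.94, n = 7). SHAM rat 311, at 11.1 CPM, was nearly 2 times the next SHAM rat at 5.65. RYGB rats lay at 2.27 to 6.95 CPM (2.82, 3.31 ± 1.45, n = 9), where rat 319 was highest and the next was at 3.75. RYGB-FMRR rats had the narrowest range, 2.82 to 4.16 CPM (3.97, 3.73 ± 0.478, n = 7). No comparison passed the test for Cd68. The log2 fold change was 0.47 in SHAM compared with SD (adjusted p = 0.199), -0.57 in RYGB compared with SHAM (adjusted p = 0.141) and -0.41 in RYGB-FMRR compared with SHAM (adjusted p = 0.304). Single rats moved these values. Without SHAM rat 311 they were 0.12, -0.21 and -0.05, and without RYGB rat 319 the RYGB value was -0.79 and was called (adjusted p = 0.0305).

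Ptprc, the CD45 phosphatase that sets the threshold of antigen receptor signalling, was lower in RYGB-FMRR than in SD rats. SD rats ranged from 18.4 to 35.8 CPM with a median of 27.5 (27.5 ± 7.27, n = 6), and SHAM rats from 15 to 39.7 CPM with a median of 21.9 (23.7 ± 8.08, n = 7). In RYGB the range was 13 to 46.3 CPM around 17 (19.5 ± 10.2, n = 9), and in RYGB-FMRR 12.7 to 20.4 CPM around 18.7 (17.3 ± 3.16, n = 7). RYGB rat 319, at 46.3 CPM, was the highest of all 29 rats, while the other 8 RYGB rats were at 19.4 CPM or less. All 7 RYGB-FMRR rats were under the SD median and under the SHAM median, and 3 of 7 were under the lowest SD rat.

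Ptprc fell by 0.67 on the log2 scale in RYGB-FMRR compared with SD (SE 0.24, edgeR adjusted p = 0.0375, 95% interval of the fold 0.446 to 0.89). The remaining comparisons gave -0.49 for RYGB against SD (adjusted p = 0.089), -0.46 for RYGB-FMRR against SHAM (adjusted p = 0.17), -0.28 for RYGB against SHAM (adjusted p = 0.434), -0.21 for SHAM against SD (adjusted p = 0.522) and -0.18 for RYGB-FMRR against RYGB (adjusted p = 0.647). In the order SD, SHAM, RYGB, RYGB-FMRR each mean was lower than the one before, and no neighbours passed the test. The medians of RYGB and RYGB-FMRR ran the other way, and without RYGB rat 319 their log2 fold change was 0.09 in place of -0.18. The call against SD was lost when any 1 of SD rats 352, 353, 354 or 356 or RYGB-FMRR rats 323, 324 or 339 was left out, with values of -0.67 to -0.58 and adjusted p of 0.0536 to 0.0917. Without RYGB rat 319, Ptprc was called lower in RYGB than in SD (-0.76, adjusted p = 0.00109) and lower in RYGB than in SHAM (-0.55, adjusted p = 0.0313). Without SHAM rat 311 the values against SHAM were nearer 0, at -0.10 for RYGB and -0.28 for RYGB-FMRR.

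Cd74, the invariant chain of class II antigen presentation, was the most abundant of the genes and was lower in 2 of the diabetic groups than in SD. SD rats ranged from 273 to 562 CPM with a median of 435 (421 ± 101, n = 6). SHAM rats ran from 203 to 507 CPM around 247 (288 ± 105, n = 7), with 5 of 7 under the lowest SD rat and rat 311 alone above the SD median. RYGB rats lay at 212 to 373 CPM around 261 (273 ± 52.3, n = 9) and RYGB-FMRR rats at 263 to 370 CPM around 324 (324 ± 41.1, n = 7). No RYGB or RYGB-FMRR rat reached the SD median, and 6 of 9 RYGB rats against 1 of 7 RYGB-FMRR rats were under the lowest SD rat.

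Compared with SD, Cd74 fell by 0.55 on the log2 scale in SHAM (SE 0.18, edgeR adjusted p = 0.0163) and fell by 0.63 in RYGB (SE 0.16, adjusted p = 0.00352). RYGB-FMRR compared with SD gave -0.38 and did not pass the test (SE 0.18, adjusted p = 0.105). These comparisons share the SD rats. Among the diabetic groups the values were -0.08 for RYGB against SHAM (adjusted p = 0.793), 0.17 for RYGB-FMRR against SHAM (adjusted p = 0.51) and 0.25 for RYGB-FMRR against RYGB (adjusted p = 0.329), with a 95% interval of the fold of 0.949 to 1.49 in the last. All 7 RYGB-FMRR rats were above the RYGB and the SHAM medians. The SHAM call was lost without SD rat 355, the highest at 562 CPM (-0.45, adjusted p = 0.06). It was also lost in a fit of SHAM and SD only (-0.55, SE 0.21, adjusted p = 0.064) and with 2 surrogate variables as covariates (-0.55, SE 0.20, adjusted p = 0.0532). The log2 fold change was unaltered in the latter pair. Of the 29 fits that left out 1 rat, only the 1 without SD rat 355 lost the SHAM call. Without SHAM rat 311 the fall was larger, at -0.74 (adjusted p = 0.000486). The RYGB call was kept in every fit that left out 1 rat (adjusted p 0.000641 to 0.0174). Without SD rat 357, Cd74 was also called lower in RYGB-FMRR (-0.48, adjusted p = 0.0406).

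C3, the central complement component, was higher in RYGB than in SD rats and varied more among rats than any of the other 6 genes. SD rats were tightly grouped at 19.6 to 32.3 CPM (median 26.9, mean 25.7 ± 5.06, n = 6). SHAM rats reached from 23 to 106 CPM (55.9, 60.4 ± 27.5, n = 7), and 6 of 7 were above every SD rat. RYGB rats extended from 17.1 to 290 CPM (57.1, 89.5 ± 87.9, n = 9), a 16.9-fold range within 1 group. Of the 9, 5 exceeded every SD rat and 1 was below them all, so the RYGB group held both the highest and the lowest C3 of the 29 rats. RYGB-FMRR rats lay at 21.7 to 141 CPM (38.1, 50.2 ± 40.6, n = 7), where rat 336 was at 141 and the other 6 at 45.4 or less.

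C3 rose by 1.80 on the log2 scale in RYGB compared with SD (SE 0.51, edgeR adjusted p = 0.00675), with a 95% interval of the fold of 1.68 to 7.21. SHAM compared with SD gave 1.23 (SE 0.52, adjusted p = 0.0675) and RYGB-FMRR compared with SD 0.96 (SE 0.52, adjusted p = 0.168). Among the diabetic groups no comparison passed the test, at 0.57 for RYGB against SHAM (adjusted p = 0.448), -0.27 for RYGB-FMRR against SHAM (adjusted p = 0.74) and -0.84 for RYGB-FMRR against RYGB (adjusted p = 0.254, 95% interval of the fold 0.289 to 1.08). Single rats moved these values. RYGB against SHAM was 0.10 without RYGB rat 344, RYGB-FMRR against SHAM was -0.78 without RYGB-FMRR rat 336, and RYGB-FMRR against RYGB was -0.37 without the first and -1.35 without the second of these rats, with no call. RYGB-FMRR against SD was 0.45 without rat 336. The SHAM value did not pass the test with all 29 rats. It was called without SHAM rat 317 (1.37, adjusted p = 0.0482), RYGB rat 344 (adjusted p = 0.0384) or RYGB-FMRR rat 336 (adjusted p = 0.0467), and in a fit of SHAM and SD only (1.23, SE 0.28, adjusted p = 0.00602), which takes its spread from those groups alone, and it was 0.69 (adjusted p = 0.182) with 2 surrogate variables as covariates. The rise in RYGB was called without any 1 rat (1.33 to 1.94) and was 0.47 (adjusted p = 0.33) with the surrogate variables.

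The 7 genes differed more among rats of a group than most genes of like abundance. The biological coefficient of variation, edgeR's estimate of spread between rats beyond counting noise, was 61% for C3, above 99.7% of the genes in the same band of mean level (10 bands of equal size), whose median was 8.49%. It was 30.1% for Ptprc (above 98.3% of its band), 34.4% for Cd68 (93.2%), 20.7% for Vcam1 (92.3%), 22.1% for Cd74 (92%), 17.2% for Icam1 (88.6%) and 34% for Ccl2 (87.1%). Several extremes fell in the same rats. SHAM rat 311 was the highest of its group for 6 of the 7 genes, C3 excepted, and was highest of its group for 13.3% of all tested genes. SHAM rat 340 was the lowest of its group for 5 of the 7 (21.7% of all genes) but the highest for C3. In RYGB-FMRR, rat 336 was highest for Ccl2, Icam1, Vcam1 and C3 (12.3% of all genes) and rat 324 lowest for 5 of the 7 (15.9%).

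**Figure D3:**
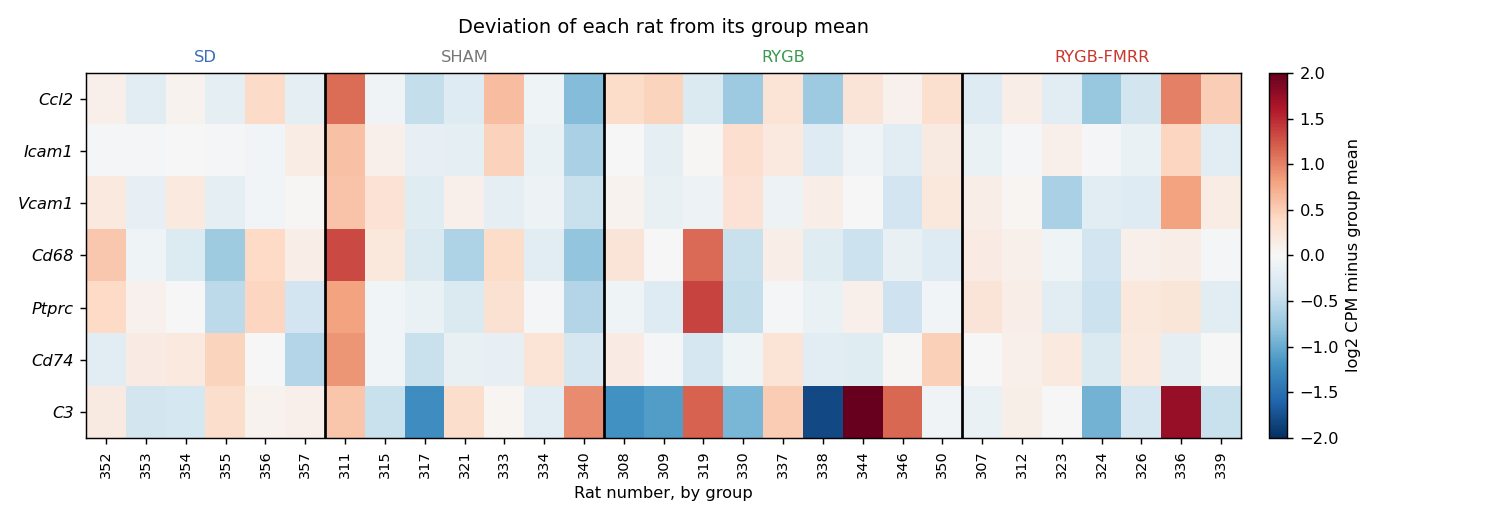
Deviation of each rat from its group mean (colour, log2 CPM) for the 7 genes (rows) in the 29 rats (columns, by group). SHAM rat 311 is high in every row, SHAM rat 340 is low in 6 of 7 rows, RYGB rat 319 is high for Cd68, Ptprc and C3, and C3 shows the strongest colours.

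Whether the genes varied together from rat to rat was tested on deviations of log2 CPM from the group means over 29 rats, with 100000 permutations of rats within their groups. Of 21 pairs, 1, Cd68 with Ptprc, passed after Benjamini-Hochberg adjustment. Its r was 0.85 (permutation p = 2e-05, adjusted p = 0.00042) and Spearman's rho was 0.74 (permutation p = 4e-05, adjusted p = 0.00084). Without SHAM rat 311 and RYGB rat 319, the rats farthest from the median, r was 0.74. With the 2 libraries of low total included r was 0.00, where both had 0 counts of Cd68 and 4 of Ptprc. Ptprc was the 5th most like of the 14775 other tested genes for Cd68, and Cd68 the 62nd for Ptprc.

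For Cd74, no correlation with Cd68 or Ptprc passed the test. Its r was 0.14 with Ptprc (permutation p = 0.503, adjusted p = 0.585; rho 0.14, permutation p = 0.504, adjusted p = 0.661; r 0.11 without rats 311 and 319) and 0.20 with Cd68 (permutation p = 0.416, adjusted p = 0.579; rho 0.08, permutation p = 0.7, adjusted p = 0.773; r -0.01 without rats 311 and 319). RYGB rat 319, highest of its group for Cd68 and Ptprc, was the lowest for Cd74 at 212 CPM, and SD rat 355, highest for Cd74, was the lowest for Cd68 and Ptprc. The chemokine and the adhesion genes gave r of 0.56 for Ccl2 with Icam1 (permutation p = 0.00936, adjusted p = 0.0573), 0.50 for Ccl2 with Vcam1 (permutation p = 0.021, adjusted p = 0.0831) and 0.52 for Icam1 with Vcam1 (permutation p = 0.0109, adjusted p = 0.0573). Spearman's rho was 0.37, 0.38 and 0.38 in the same order (permutation p = 0.0792, 0.0663 and 0.0621, adjusted p = 0.203 in each). None passed after adjustment, and r was 0.34, 0.19 and 0.33 without the 2 rats farthest from the median. Those rats were 311 and 336 for Ccl2 and 340 and 311 for Icam1. The pair with the smallest p after Cd68 with Ptprc was Ccl2 with Cd68, which did not pass either. Its r was 0.53 (permutation p = 0.00538, adjusted p = 0.0565), and 0.39 without rats 311 and 336. Its rho was 0.51 (permutation p = 0.00613, adjusted p = 0.0644). As a description across all tested genes, Ptprc had 102 others with r over 0.8, Cd68 36, C3 34, Cd74 4, Vcam1 3, and Icam1 and Ccl2 none.

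**Figure D4:**
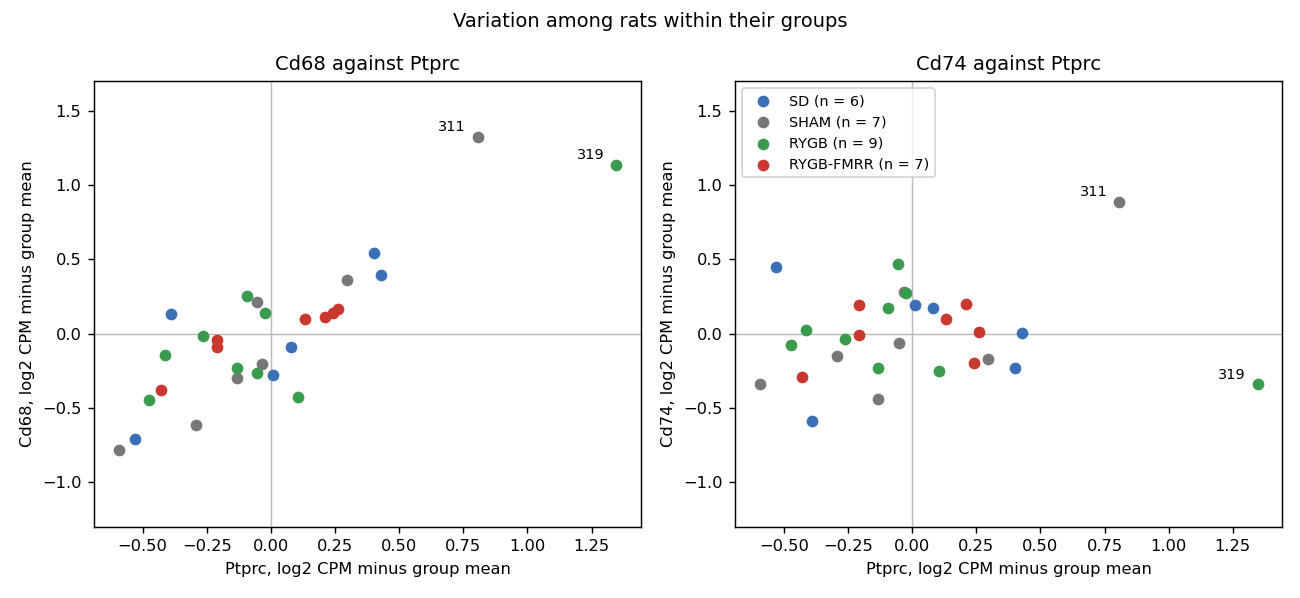
Deviation from the group mean (log2 CPM) of Cd68 (left, y axis) and Cd74 (right, y axis) against that of Ptprc (x axis), 1 point per rat, 29 rats coloured by group. Cd68 follows Ptprc with r = 0.85, rats 311 and 319 lie at the upper end, and Cd74 against Ptprc has r = 0.14.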

How the data were processed

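RNA from renal cortex was sequenced by the authors as stranded total RNA libraries in pairs, and the reads were trimmed, aligned to rn5 with STAR and counted on Ensembl exons with featureCounts 1.6.4 on the reverse strand. The authors deposited raw counts per gene for each rat, neither normalized nor filtered. Groups came from the sample labels. Of 31 libraries, 2 with totals under 1000000 were left out, which left 29. Counts were scaled by TMM, filtered by filterByExpr (minimum count 10) and tested in edgeR 4.0.16 under R 4.3.3 with 4 groups in one model, and 14776 of 26404 genes were tested. Standard errors were derived from each log2 fold change and its F statistic. Log2 CPM used a prior count of 2. The scripts were tested on simulated data. Each sample was taken to be 1 rat, since each carries its own rat number. The authors used DESeq2's Wald test, run here as an alternative (1.42.0). Other alternatives were DESeq2 size factors, no filter, the adjusted p alone, 2 surrogate variables (sva 3.50.0), only the groups compared, all 31 libraries, and leaving out each rat.

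The genes and lists were chosen with earlier results of these data known. The rule for genes given by name was all 7, up to 2 called genes per related list and direction, and the 3 genes most like each of the 7. Identifiers could not be paired with symbols (0 matched), so the related lists, the cell type markers and the most like genes were not analysed here.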

Additional observations from a re-analysis of the deposited data

Results flagged for a closer look

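A gap between the extreme rat and its nearest neighbour was tested by Dixon's 95% criterion in 28 combinations of gene and group, and 4 passed it. Chance passes about 1 in 20 of independent combinations. These were not independent, since genes share rats and RYGB rat 319 passed for both Cd68 and Ptprc, which were correlated. The count was therefore not read as an excess. SD rat 357 stood above the other SD rats for Icam1, at a log2 CPM of 5.17 against 5.0 for the next, although that whole group spanned only 31 to 35.9 CPM. RYGB rat 319 stood apart for Cd68, at 2.82 against 1.94, and for Ptprc, at 5.53 against 4.29. RYGB-FMRR rat 336 stood apart for C3, at 7.14 against 5.51. The totals of these libraries were within the range over all groups. Within their groups, SD rat 357 (20896370) and RYGB-FMRR rat 336 (19334717) had the lowest totals.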

How the results depend on the processing

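The 29 fits that left out 1 rat called 0 to 2 of the 7 genes in SHAM against SD, 0 to 3 in RYGB against SHAM, 1 in RYGB-FMRR against SHAM, 0 in RYGB-FMRR against RYGB, 2 to 3 in RYGB against SD and 0 to 2 in RYGB-FMRR against SD. DESeq2's Wald test, its size factors, no filter, the adjusted p alone and all 31 libraries called the same genes in the 6 comparisons. In the fit of only the groups compared, SHAM against SD called C3 and not Cd74. With 2 surrogate variables, SHAM against SD called 0 genes and RYGB against SD 1 (Cd74). Over all 14776 genes the calls in these comparisons also fell under that setting, from 2744 to 1765 and from 2884 to 2166. The uncalled C3 log2 fold change in RYGB against SHAM turned from 0.57 to -0.22. Smaller log2 fold changes turned to -0.06 (Icam1, SHAM against SD), 0.09 (Icam1, RYGB-FMRR against SHAM), 0.03 (Ccl2, RYGB-FMRR against RYGB) and 0.02 (Cd68, RYGB against SD). The cause was not tested.

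Leaving out 1 rat turned the sign of 11 uncalled log2 fold changes. They ranged from -0.02 to 0.19 (Icam1) and -0.08 to 0.10 (Vcam1) in SHAM against SD, -0.15 to 0.12 (Cd74) in RYGB against SHAM, -0.12 to 0.09 (Icam1) and -0.25 to 0.04 (Vcam1) in RYGB-FMRR against SHAM, -0.29 to 0.05 (Ccl2) and -0.24 to 0.09 (Ptprc) in RYGB-FMRR against RYGB, -0.31 to 0.02 (Cd68) in RYGB against SD, and -0.01 to 0.11 (Icam1), -0.21 to 0.05 (Vcam1) and -0.05 to 0.19 (Cd68) in RYGB-FMRR against SD.

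With all 31 libraries, r was -0.48 for Ccl2 with Icam1, -0.19 for Ccl2 with Vcam1, -0.10 for Cd68 with C3 and 0.00 for Cd68 with Ptprc, and Icam1 with Vcam1 passed at 0.70 (permutation adjusted p = 0.0218). The 2 added libraries held 0 or 1 counts of Ccl2, 2 and 9 of Icam1, and 1 and 3 of Vcam1. The values of r with all 31 libraries therefore rested partly on very few reads. Spearman's rho was -0.03 for Vcam1 with C3. No paired analysis was possible because no rat number occurs in more than 1 group. Ccl2 and Cd68 were counted at the fewest reads, which limits their precision.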
